A study of Rattus norvegicus with 6 samples.

Results

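The miRNAs of the imprinted Dlk1-Dio3 locus were followed in small RNA sequencing of rat sperm. The cluster was taken as a list of 38 hairpin names, and a member was any row of the deposited tables that was matched to the genome and carried such a name, alone or with a copy number. By this rule 34 members had a row, in 35 of the 384 miRNA hairpin rows and of 26562 small RNA rows in all, because miR-434 is listed as a pair of copies with equal counts. The other 4 names, miR-299, miR-381, miR-409b and miR-665, found no row and were not analysed here.

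Spermatozoa came from the epididymis of wild-type Wistar rats aged 5 months. The 3 libraries HPD2, HPD3 and HPD7 came from fathers on a high-protein diet (HPD), which started at 10 weeks of age and lasted 2 to 3 months, and the 3 libraries CTRL1, CTRL2 and CTRL3 from fathers on a standard diet (SD). According to the methods each library is an individual rat, and sperm underwent a hypotonic shock to lower the load of somatic cells. No label gives a sequencing batch, so a batch and the diet cannot be told apart.

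The Dlk1-Dio3 locus is one of the best-known imprinted domains of mammals. From the paternal chromosome it expresses the protein-coding genes Dlk1, Rtl1 and Dio3, and from the maternal chromosome the long non-coding RNAs Meg3, Meg8 (Rian) and Mirg together with a long series of miRNAs. The germline control region between Dlk1 and Meg3 is methylated in sperm, and in mouse that methylation keeps the non-coding RNAs of the paternal copy silent. The miRNAs are known mainly from brain, embryo, placenta and muscle. In mouse, miR-431, miR-433, miR-127, miR-434 and miR-136 lie antisense to Rtl1, match its mRNA in full and direct its cleavage, and the long run from miR-379 to miR-410 lies further along in Mirg.

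All 38 members had a miRNA gene in RefSeq on chromosome 6 of the rat assembly GRCr8, with 69 mature sequences in all. The genes of miR-431, miR-433, miR-127, miR-434 and miR-136 lay within the span annotated as Rtl1. The mature miRNAs of the 4 members whose level fell under HPD are shown first, 5′ to 3′, with the seed (bases 2 to 8, which pair with a target mRNA) in capitals. The rows count a whole hairpin, so reads of the 5p and 3p arms could not be separated.
rno-miR-127-3p: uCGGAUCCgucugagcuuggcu
rno-miR-434-5p: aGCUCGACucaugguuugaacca
rno-miR-434-3p: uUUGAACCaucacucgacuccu
rno-miR-379-5p: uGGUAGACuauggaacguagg
rno-miR-379-3p: cUAUGUAAcaugguccacuaac
rno-miR-411-5p: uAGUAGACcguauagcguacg
rno-miR-411-3p: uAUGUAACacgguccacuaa

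No seed was shared among these 4 members. The 69 mature sequences had 65 distinct seeds, and 3 seeds were shared by more than 1 member. The sequences with a shared seed are printed because they show which members could bind the same target sites by their seed.
rno-miR-410-5p: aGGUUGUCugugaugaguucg
rno-miR-494-5p: aGGUUGUCcguguugucuucuc
rno-miR-496-5p: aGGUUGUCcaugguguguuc
rno-miR-376b-5p: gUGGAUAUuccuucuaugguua
rno-miR-376c-5p: gUGGAUAUuccuucuauguuu
rno-miR-381-3p: uAUACAAGggcaagcucu
rno-miR-539-3p: cAUACAAGgguaauuucuuuuc

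The libraries held 5703625, 7697588 and 7448764 reads under HPD and 7920000, 4141018 and 4254027 reads under SD, with rows nested in another row counted once. Reads of miRNA hairpins made up 11.3% to 15.1% of the reads in HPD libraries and 20.9% to 28.9% in SD libraries. The lower miRNA share touches every result that follows. Among 285 miRNA rows tested the median log2 fold change of HPD over SD was -0.86, against 0.03 over all 1858 rows tested. Sperm markers of the germ line were present in every library, with 41396, 61031 and 61560 reads of miR-34b in HPD and 30228, 16325 and 33958 in SD.

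The cluster was a scarce part of sperm miRNA. Reads were found for 23, 27 and 25 of the 34 members in HPD2, HPD3 and HPD7, and for 27, 32 and 23 members in CTRL1, CTRL2 and CTRL3. The number of members with a read therefore overlapped between the diets. With 10 reads or more there were 15, 15 and 12 members in HPD libraries and 20, 19 and 15 in SD libraries. Thinned to the 840988 miRNA reads of the shallowest library, 22.9, 26.0 and 25.0 members were expected with a read in HPD libraries and 25.9, 32.0 and 22.5 in SD libraries. In all, 16 members had reads in every library.

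**Figure D1:**
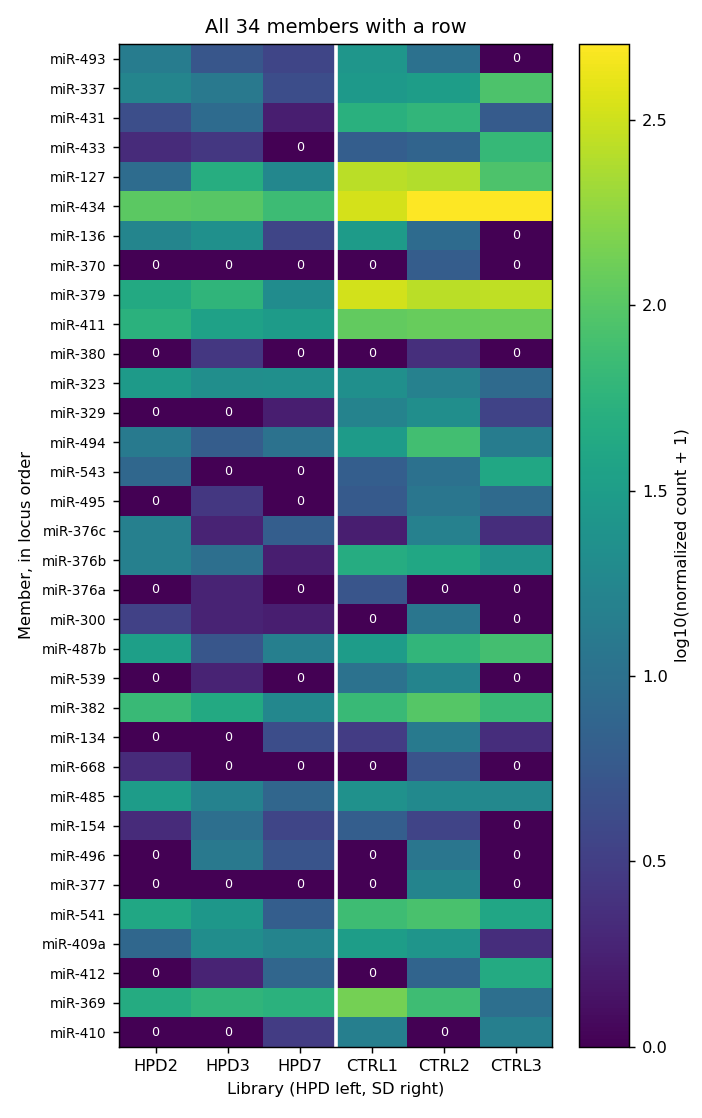
Level of each of the 34 members with a row, in the order of the genes along the locus (top to bottom), as log10 of the normalized count plus 1, in the 3 HPD libraries (left) and the 3 SD libraries (right); cells marked 0 held no read. The rows of miR-434, miR-379 and miR-411 are bright in all 3 SD libraries and darker in the HPD libraries, and many members further along are at or near 0 in both diets.

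Summed over the cluster, normalized counts (reads divided by 1 size factor per library) were 559, 512 and 313 in HPD2, HPD3 and HPD7, and 1701, 1872 and 1516 in CTRL1, CTRL2 and CTRL3. These sums rest on 1535 reads under HPD and 5137 reads under SD. As a share of miRNA reads this was 0.0558% (95% Wilson interval 0.0511 to 0.0610), 0.0573% (0.0528 to 0.0621) and 0.0551% (0.0503 to 0.0603) in the HPD libraries. It was 0.108% (0.104 to 0.113), 0.166% (0.158 to 0.175) and 0.122% (0.116 to 0.130) in the SD libraries. All 3 HPD libraries lay below all 3 SD libraries, and no interval of an HPD library reached one of an SD library. These intervals cover counting error only. The mean share was 0.0561 ± 0.00113% under HPD and 0.132 ± 0.0302% under SD (mean ± standard deviation, n = 3 each), so that the SD libraries spread far more among themselves than the HPD libraries did. The members differed on this scale. The 4 members printed first above, picked by a test on these same data, held 0.0207% to 0.0266% in HPD and 0.0667% to 0.101% in SD. The 12 other members tested overlapped between the diets, with 0.0264% to 0.0321% in HPD and 0.0277% to 0.0474% in SD. The 18 members not tested held 0.00301% to 0.00464% in HPD and 0.00746% to 0.0180% in SD. In bulk RNA, fewer cells of a type and less RNA per cell cannot be told apart.

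**Figure D2:**
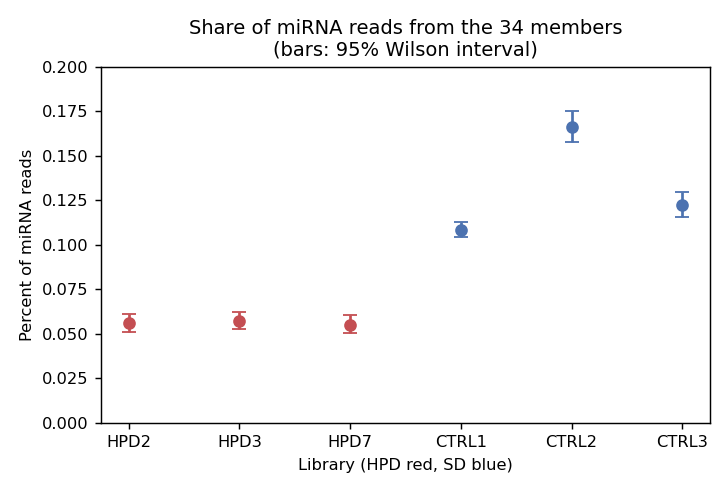
Share of miRNA reads, in percent, that came from the 34 members in each library (HPD red, left; SD blue, right), with bars for the 95% Wilson interval. The 3 HPD libraries lie between 0.0551% and 0.0573%, below the 0.108% to 0.166% of the SD libraries.

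Of the 34 members with a row, 16 passed the filter on low counts and 18 did not. By edgeR's quasi-likelihood test with Benjamini-Hochberg adjustment over all 1858 rows, 4 of the 16 were lower under HPD at an adjusted p of at most 0.05, and 0 were higher. At an unadjusted p under 0.05, 9 of the 16 were lower, beside 46.0% of miRNA rows, and 0 were higher, and neither DESeq2 nor limma called a member higher. Across all rows 6.40% were called lower and 2.21% higher, and among miRNA rows 29.1% were called lower. The share of members called lower, 25.0%, was thus near that of miRNA rows as a whole. The log2 fold change was below 0 for 15 of the 16 members, as for 82.1% of miRNA rows, and its median was -1.61 over the members. With miRNA rows normalized among themselves, which moves the median of miRNA rows to -0.09, 3 of 15 members tested (miR-127, miR-379 and miR-434) were called lower, beside 16.4% of miRNA rows, the median of the members was -0.91, and miR-136, miR-369, miR-409a and miR-485 joined miR-323 above 0. Normalized counts of the diets did not overlap, with HPD lower, for 7 of the 16 members (43.8%), near the 45.3% of miRNA rows tested. The filter asks for enough reads in at least 3 libraries, counted over both diets together. A member can therefore pass on the reads of its higher group alone. The 16 therefore do not stand for the whole cluster.

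**Figure D3:**
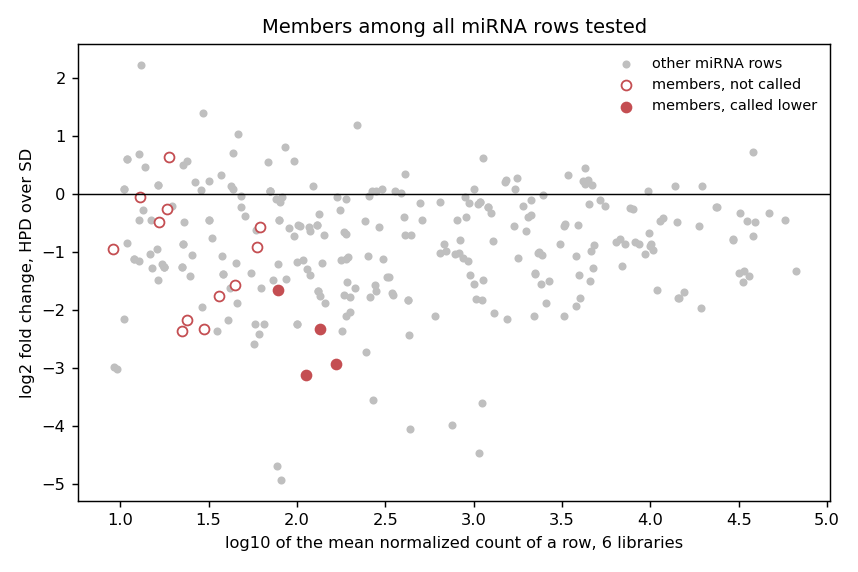
Log2 fold change of HPD over SD against the mean level of each miRNA row tested (log10 of the normalized count), with members of the locus in red, filled where called lower, and other miRNA rows in grey. The 4 called members lie between -3.12 and -1.66, and the other 12 spread between -2.37 and 0.64.

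Of the 5 members within the Rtl1 span, 3 were tested and 2, miR-434 and miR-127, were lower under HPD. Of the reads of the whole cluster, this group made up 23.9%, 34.7% and 29.2% in HPD2, HPD3 and HPD7, and 40.4%, 44.2% and 43.8% in CTRL1, CTRL2 and CTRL3. The diets did not overlap in this share. Singly, miR-434 overlapped, with 18.7% to 22.7% in HPD and 19.9% to 33.4% in SD. So did miR-127, with 1.45% to 9.15% in HPD and 5.86% to 15.5% in SD. Outside the group, miR-379 did not overlap, with 6.26% to 11.2% in HPD and 14.1% to 19.5% in SD. Other shares were higher under HPD without overlap. The run from miR-379 to miR-410 as a whole held 62.2% to 71.0% in HPD and 50.3% to 56.4% in SD. Within it, miR-323 held 4.07% to 6.70% in HPD and 0.495% to 1.25% in SD. Also higher without overlap were miR-382, miR-485 and miR-369. Shares of the same whole are not independent of each other. The lack of overlap was thus not particular to the Rtl1 group. These comparisons of shares were made after values had been seen and have no test.

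The most abundant member was miR-434 (rno-mir-434), which in mouse is antisense to Rtl1. Its copies together had normalized counts of 104, 99.2 and 70.6 in HPD libraries and of 338, 505 and 506 in SD libraries. Every HPD library was far below every SD library. The means were 91.3 ± 18.2 under HPD and 449.6 ± 96.6 under SD, with a log2 fold change of -2.33 ± 0.34 (SE) and an edgeR adjusted p of 0.00249. Because the table gives both copies equal counts, the reads could not be assigned to one of them.

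The largest fitted fold change of the 16 tested members was that of miR-127 (rno-mir-127), a miRNA of the Rtl1 antisense group known in human cells to repress BCL6. Its normalized counts were 8.11, 47.0 and 17.0 in HPD libraries and 264, 249 and 88.9 in SD libraries. The diets did not overlap, but HPD3 stood above the other HPD libraries and CTRL3 below the other SD libraries. The log2 fold change was -3.12 ± 0.64 (SE) with an edgeR adjusted p of 0.0122. The call was lost without CTRL2 (adjusted p = 0.0714) and without HPD7 (adjusted p = 0.0909).

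The remaining members of the Rtl1 group were scarce. For miR-136 normalized counts were 16.2, 21.7 and 2.71 in HPD and 29.4, 7.81 and 0 in SD, with a log2 fold change of -0.06 ± 1.16 (SE) and an edgeR adjusted p of 0.992. The diets overlapped fully, and the sign of this value turned in several other settings. For miR-431, which in mouse muscle represses Pax7, there were 3, 9 and 1 reads in HPD libraries and 74, 45 and 4 in SD libraries. Its neighbour miR-433 had 1, 2 and 0 reads in HPD and 8, 5 and 51 in SD. Both missed the filter. For miR-433 the diets did not overlap, while for miR-431 HPD3 lay above CTRL3. The SD library with few miR-431 reads, CTRL3, held most of the miR-433 reads.

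**Figure D4:**
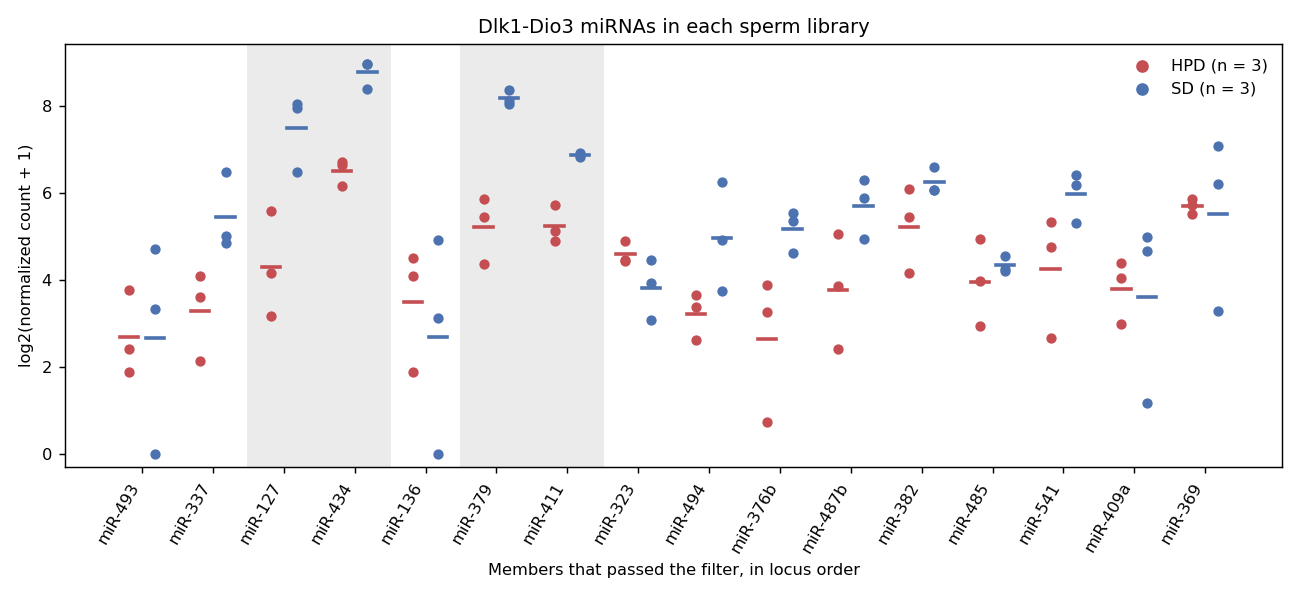
Log2 of the normalized count plus 1 of the 16 members tested, in locus order, for each HPD library (red, left) and SD library (blue, right), with bars for the group means and grey shading behind the 4 members called lower. In the shaded members no red point reaches a blue one, while for miR-136, miR-409a and miR-369 the SD points spread across the HPD points.

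On the miR-379/410 side, 26 of 29 members had a row, 11 were tested and 2 were called lower, both from the first genes of the run. The median log2 fold change of the 11 was -1.57. For miR-379 (rno-mir-379), the first gene, normalized counts were 42.9, 57.4 and 19.7 in HPD libraries and 331, 264 and 278 in SD libraries. The SD libraries differed among themselves by no more than 1.25 times, and the HPD libraries were all far below them. The means were 40.0 ± 19.0 under HPD and 291 ± 35.4 under SD, with a log2 fold change of -2.94 ± 0.41 (SE) and an edgeR adjusted p of 0.00222, the smallest of the cluster.

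Next to it along the locus lies miR-411 (rno-mir-411). It shares a run of 10 bases with miR-379 near the end of the 3p arms printed above, but no full seed. Its normalized counts were 52.2, 33.9 and 29.2 in HPD libraries and 114, 117 and 121 in SD libraries. No other tested member varied so little among SD libraries, 1.07 times from lowest to highest. The log2 fold change was -1.66 ± 0.37 (SE) with an edgeR adjusted p of 0.0179. This call held without CTRL3 but was lost without any other library, with an adjusted p of 0.0547, 0.142 and 0.112 without HPD2, HPD3 and HPD7, and of 0.0559 and 0.0906 without CTRL1 and CTRL2. When miRNA rows were normalized among themselves, the log2 fold change was -0.91 with an adjusted p of 0.0975.

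Further members had HPD libraries below all SD libraries without passing the adjusted threshold. For miR-494, one of the seed-sharing members above, normalized counts were 11.6, 5.22 and 9.50 in HPD and 29.4, 75.5 and 12.5 in SD, with a log2 fold change of -2.17 ± 0.72 (SE) and an edgeR adjusted p of 0.106. CTRL3 lay close to the HPD libraries, and without it the adjusted p was 0.0258. DESeq2 on all libraries gave an adjusted p of 0.0492. For miR-376b normalized counts were 13.9, 8.70 and 0.678 in HPD and 45.8, 40.4 and 23.8 in SD, with a log2 fold change of -2.37 ± 0.80 (SE) and an edgeR adjusted p of 0.116. Its seed partner miR-376c had too few reads for the filter, with 12, 1 and 8 reads in HPD libraries and 1, 11 and 1 in SD libraries, which overlap.

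For another 3 members the diets overlapped in a single pair of libraries or a few, and the adjusted p was above 0.05. In miR-487b normalized counts were 32.4, 4.35 and 13.6 in HPD and 30.1, 58.6 and 77.6 in SD, with a log2 fold change of -1.75 ± 0.68 (SE) and an edgeR adjusted p of 0.186. In miR-541 they were 39.4, 26.1 and 5.43 in HPD and 72.5, 84.6 and 38.8 in SD, with -1.57 ± 0.63 (SE) and an edgeR adjusted p of 0.212. In both, HPD2 slightly exceeded the lowest SD library. In miR-382 they were 67.2, 42.6 and 17.0 in HPD and 66.4, 96.3 and 66.3 in SD, with -0.92 ± 0.49 (SE) and an edgeR adjusted p of 0.411, HPD2 being level with CTRL1 and CTRL3.

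The other 4 tested members of the run showed no fall that could be told from the spread. For miR-369, known in human cells to bind AU-rich elements of mRNAs, normalized counts were 45.2, 57.4 and 52.2 in HPD and 135, 72.9 and 8.76 in SD, so that the SD libraries spread 15.5 times around close HPD values. The log2 fold change was -0.56 ± 0.71 (SE) with an edgeR adjusted p of 0.832. For miR-409a they were 6.95, 20.0 and 15.6 in HPD and 30.8, 24.7 and 1.25 in SD, with -0.48 ± 0.89 (SE) and an edgeR adjusted p of 0.913. As with miR-369, CTRL3 lay below every other library. For miR-485 they were 30.1, 14.8 and 6.78 in HPD and 22.6, 18.2 and 17.5 in SD, with -0.26 ± 0.64 (SE) and an edgeR adjusted p of 0.934. In this fit miR-323 alone had a log2 fold change above 0, of 0.64 ± 0.59 (SE) with an edgeR adjusted p of 0.749, from 29.0, 20.9 and 21.0 normalized counts in HPD and 21.2, 14.3 and 7.51 in SD.

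**Figure D5:**
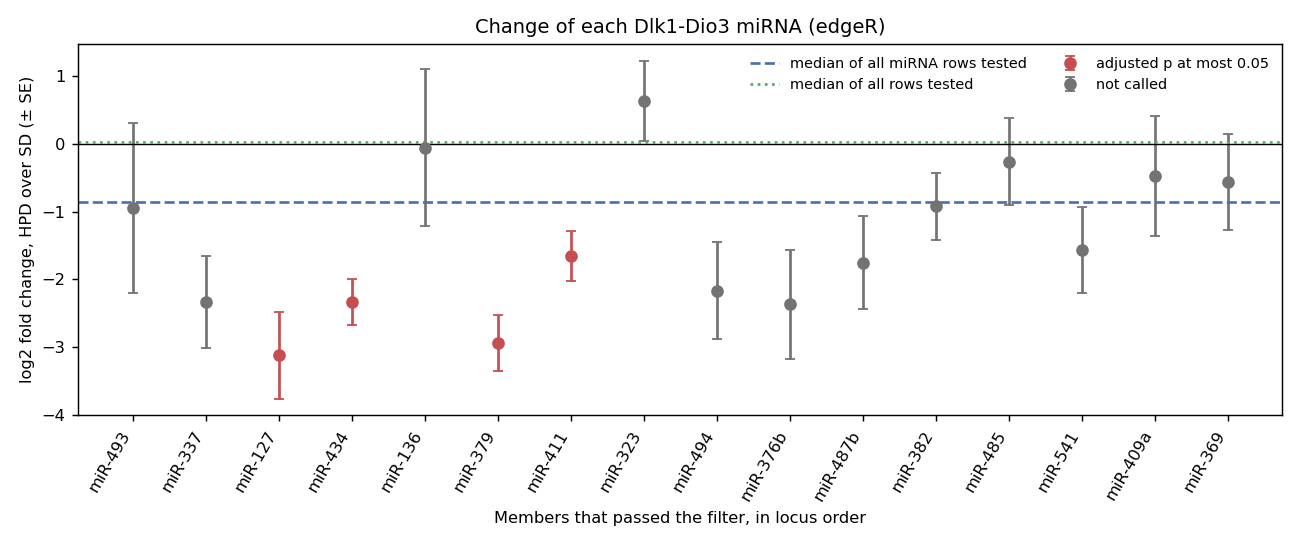
Log2 fold change of HPD over SD with its standard error for the 16 members tested, in locus order, red where the edgeR adjusted p was at most 0.05. The dashed line is the median of all miRNA rows (-0.86), and the values range between -3.12 for miR-127 and 0.64 for miR-323.

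On the Meg3 side, 2 of 3 members had a row and both were tested without a call. For miR-337 normalized counts were 16.2, 11.3 and 3.39 in HPD and 28.1, 31.2 and 88.9 in SD, with a log2 fold change of -2.33 ± 0.68 (SE) and an edgeR adjusted p of 0.0649. Here CTRL3 was the highest library and the diets did not overlap. The adjusted p was 0.0206 with DESeq2 and 0.0361 with library size alone. For miR-493 normalized counts were 12.7, 4.35 and 2.71 in HPD and 25.3, 9.11 and 0 in SD, with -0.95 ± 1.25 (SE) and an edgeR adjusted p of 0.837. On the Meg8 side miR-370, known in human liver cells to target CPT1A, had 0 reads in every HPD library and 4 reads in CTRL2 as its only reads.

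The 18 members that missed the filter held 108 reads under HPD and 470 under SD, and none exceeded 74 reads in a library. Besides miR-433, the diets did not overlap for miR-329, with 0, 0 and 1 reads in HPD and 22, 16 and 2 in SD, nor for miR-495, with 0, 2 and 0 reads in HPD and 7, 8 and 6 in SD. In rat neurons miR-329 is one of the activity-regulated miRNAs of the run, as is miR-134, which targets Limk1 there and had 0, 0 and 5 reads in HPD and 3, 9 and 1 in SD. These counts are too low to give a size to a change. No read of miR-377 was found in the HPD libraries and 12 were found in CTRL2 alone, and a count of 0 allows up to 3 reads per library.

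Reads ran the other way in some of these scarce members. For miR-496 there were 0, 13 and 6 reads in HPD and 0, 8 and 0 in SD, and for miR-154 there were 1, 10 and 4 in HPD and 8, 2 and 0 in SD. Both overlapped between diets. The other scarce members, miR-380, miR-543, miR-376a, miR-300, miR-539, miR-668, miR-412 and miR-410, also overlapped and reached at most 35 reads in a library.

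Within a diet, many but not all of the tested members had the same library at the top or bottom. In SD, CTRL3 was the lowest library for 11 of the 16 tested members and the highest for 4, and CTRL1 was the highest for 9. In HPD, HPD7 was the lowest library for 10 and the highest for 0, and HPD2 was the highest for 11. All miRNA reads ran in the same order, at 15.1%, 13.4% and 11.3% of the reads in HPD2, HPD3 and HPD7. The cluster's share of miRNA reads was 0.0558%, 0.0573% and 0.0551% there. The order of libraries was not counted over other miRNA rows, so it cannot be called particular to the locus. CTRL3 was low in miR-127, miR-431, miR-136, miR-493, miR-409a and miR-369, and yet held the most reads of miR-433, miR-337, miR-543 and miR-412, so that some members of the locus were high and others low in that library. Without CTRL3, 7 members were called lower, miR-431, miR-329 and miR-494 being added, and without CTRL2 or HPD7 there were 2, miR-379 and miR-434. At an adjusted p of at most 0.05, those 2 kept their call in 14 of 14 other settings and left-out libraries. By single row, neither passed the additional minimum of 200 for the mean normalized count that the study set for its lists. Each copy row of miR-434 averaged 135, but its copies together averaged 270, above that minimum.

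Markers of other cell types were set beside these values. Leukocyte miRNAs had summed normalized counts of 5645 to 7336 in HPD and 11531 to 13240 in SD, with 4 of 6 called lower (miR-142, miR-223, miR-155 and miR-146a), beside 29.1% of all miRNA rows, and a median log2 fold change of -1.14. The endothelial miR-126a had 1012 to 1732 in HPD and 3076 to 6392 in SD and was called lower, at -2.11. Smooth muscle and stromal miRNAs had 20744 to 65653 in HPD and 39679 to 91053 in SD, with 2 of 4 called lower (miR-199a and miR-214) and a median of -1.32. The stromal ranges overlapped, and the most abundant stromal marker, miR-143, had a log2 fold change of -0.34 with an edgeR adjusted p of 0.842. As a share of miRNA reads, the scale on which the summed cluster was lower, the leukocyte list held 0.684% to 0.989% in HPD and 0.840% to 1.18% in SD, and the stromal list 3.64% to 7.33% in HPD and 3.52% to 5.80% in SD. Both sums overlapped between the diets. Such sums weigh the abundant markers most, so they do not give the shares of the called leukocyte and stromal markers, which were not compared singly. The endothelial miR-126a, with 0.101% to 0.193% in HPD and 0.273% to 0.516% in SD, did not overlap and was lower under HPD on both scales. The part of these cell types in the result was not tested.

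Epithelial miRNAs had 26069 to 51100 in HPD and 39921 to 77405 in SD, with 1 of 7 called lower (miR-203a). Erythroid miRNAs had 620 to 695 in HPD and 1113 to 1646 in SD, with 1 of 3 called lower (miR-451). Striated muscle miRNAs had up to 270 in HPD and up to 302 in SD, with 0 of 2 tested called. These ranges overlapped for epithelium and muscle and not for the erythroid list. Neural miRNAs had 3295 to 5555 in HPD and 3927 to 6803 in SD, with 0 of 3 tested called, and the neural miR-137 had 0 reads in HPD and 1 read in SD. Neuroendocrine miRNAs had 15365 to 22993 in HPD and 20027 to 27468 in SD, with 0 of 2 called. Of the germ line itself, miR-34b, miR-34c and miR-449a had 58368 to 68559 in HPD and 34862 to 52499 in SD, with 0 of 3 called and a median of 0.14. The X-linked testis miRNAs had 37169 to 65012 in HPD and 34274 to 64210 in SD, with 0 of 12 called and a median of 0.16. The germ cell ranges did not overlap, and the X-linked ranges did. As a share of miRNA reads, the germ cell list held 6.53% to 10.2% in HPD and 2.22% to 4.24% in SD. This sum weighs miR-34b most, and the shares of its 3 miRNAs were not compared singly. The X-linked list held 6.23% to 6.51% in HPD and 2.77% to 4.09% in SD. Both shares were higher under HPD without overlap. So were those of the neural, neuroendocrine and striated muscle lists, while epithelial and erythroid shares overlapped.

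RefSeq places 59 miRNA genes between Dlk1 and Dio3, of which 38 are the members. Of 26 further names of miRNAs in the locus, older and later names included, 11 had a row, 2 were tested and 0 were called by edgeR. For miR-1247, the miRNA gene nearest to Dio3, there were 37, 37 and 28 reads in HPD libraries and 72, 65 and 118 in SD libraries, with a log2 fold change of -1.62 ± 0.49 (SE) and an edgeR adjusted p of 0.0740. The row named miR-299a, which RefSeq gives as the later name of miR-299, had 2, 3 and 2 reads in HPD and 33, 8 and 13 in SD, with -2.99 ± 0.92 (SE) and an edgeR adjusted p of 0.0827. The other 9 held at most 6 reads each under HPD and at most 33 under SD.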

How the data were processed

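Small RNA libraries of epididymal sperm from 3 HPD and 3 SD rats were compared. After adapter trimming and removal of short reads, the authors assigned reads with SPORTS1.0 on the rat build Rnor_6.0 databases and deposited estimated counts per small RNA, where a read that fits several RNAs is split. The labels also name a mouse build. The authors also deposited normalized counts, a signal equal to the whole count divided by 1 factor per library (100% of values whole within 1e-06 in each library, so the reads are those of the count table). These were used as levels, and the counts were used for tests. The snoRNA row is a total, 1.25% to 1.45% of the table in HPD and 0.293% to 0.536% in SD libraries, and was left out.

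Estimated counts were rounded and fitted with edgeR 4.0.16 in R 4.3.3 by the quasi-likelihood test with TMM factors. Rows were kept by filterByExpr (count minimum 10, total minimum 15), p-values were adjusted over the 1858 rows kept by Benjamini-Hochberg, and the threshold was 0.05. The procedure was tested on simulated data. Alternatives used DESeq2 1.42.0, limma 3.58.1 on log2 of the deposited values plus 1, other factors and filters, and each library left out. Values are given for every member that passed the filter and as counts and ranges for the others. Members, lists and groups by place were chosen with earlier results of these data known. Of 16 further names listed for the locus, 4 were dropped because RefSeq (GRCr8) does not place them there. Sequences and gene order come from RefSeq, and no coordinates are given because the builds differ. The p-values set the difference between the diets against the spread between these libraries.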

Additional observations from a re-analysis of the deposited data

How the results depend on the processing

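The number of members called lower was 4, and 2 to 7 with 1 library left out (2 without CTRL2 and without HPD7, 7 without CTRL3). It was 6 with DESeq2, 5 with library size alone, 4 with upper quartile factors, limma, copies summed or a mean count of at least 50 (6 members tested), and 3 with no filter (34 tested) or with miRNA rows normalized among themselves (15 tested). Under the stricter thresholds that the study set for its lists, which also ask for a change of 2-fold or more and for normalized counts averaging above 200, it was 0. That count took single rows. With its copies summed, miR-434 averaged 270, with a log2 fold change of -2.33 and an edgeR adjusted p of 0.00182, which meets these thresholds. No setting called a member higher. The median log2 fold change of the members was -2.36 to -1.21 with 1 library left out and -0.91 with miRNA rows normalized among themselves. The median of all rows was 0.03 with TMM, 0.28 with upper quartile factors, -0.09 with library size alone, 0.18 with limma and 0.69 with no filter. The difference in the share of miRNA reads, HPD minus SD, was -0.0763 percentage points, and -0.0883 to -0.0594 with 1 library left out. With all reads as the denominator it was -0.0241, a value on another scale that cannot be compared in size. Mean shares of all reads were 0.00744% under HPD and 0.0315% under SD, beside 0.0561% and 0.132% of miRNA reads.

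Of the log2 fold changes of single members, 183 kept direction and call, 9 lost the call, 4 gained one and 16 turned sign, all of the last without a call. The call of miR-411 was lost with no filter (-1.40, adjusted p = 0.577). The sign of miR-136 turned with DESeq2 (0.095), upper quartile factors (0.22), miRNA rows among themselves (0.77), no filter (0.17) and limma (0.81), and it ranged between -0.62 and 1.70 with 1 library left out. With miRNA rows among themselves miR-369, miR-409a and miR-485 were at 0.37, 0.44 and 0.44. With limma miR-369, miR-409a and miR-493 were at 0.18, 0.20 and 0.013. With 1 library left out the ranges were -1.08 to 0.33 for miR-369, -1.01 to 0.12 for miR-409a and -0.84 to 0.23 for miR-485. The cause was not tested. No paired analysis was possible because the columns cannot be tied to numbered rats.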
